A study of Rattus norvegicus with 20 samples.

Results

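Mt2A and Mt1 are the metallothionein genes measured here in rat liver. They were taken as every probe set of the array whose annotation names Mt1, Mt1a, Mt1m or Mt2A alone, which gave 2 of 31042 probe sets: 1388271_at for Mt2A (gene ID 689415) and 1388267_a_at for Mt1 (gene ID 24567). No probe set carried the symbol Mt1a or Mt1m. The genes were picked because the Mt2A level is low in livers of rats fed D3T, so they were chosen by the measured log2 values of the D3T and control arrays, and those values are given below as a description. Each of the 20 arrays held liver RNA of 1 female Sprague Dawley rat, and all rats ate the same Harlan Teklad 4% mash for 24 days. The diet of 5 control rats had nothing added. The diets of the other 3 groups of 5 rats held 1650 mg of 5,6-benzoflavone (BNF), 600 mg of 3H-1,2-dithiole-3-thione (D3T) or 500 mg of its 4-methyl-5-pyrazinyl derivative (OLT) in each kg of diet. BNF activates the aryl hydrocarbon receptor. D3T and OLT are dithiolethiones, known as inducers of detoxification enzymes through the transcription factor Nrf2. Each rat gave a single measurement on a single diet and day, so no time course or dose response was measured.

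Metallothioneins are small, cysteine-rich proteins that bind zinc and copper and buffer them inside the cell. The liver makes them in quantity. Their genes are switched on by metals through the zinc-sensing transcription factor Mtf1, which binds short metal response elements (MREs) in the promoter, and they are also induced by glucocorticoids, inflammation and oxidative stress.

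The promoters of both genes are shown because MREs are the control element the family is known for. Each sequence holds the 250 bases before the RefSeq transcription start in assembly GRCr8, read on the minus strand of chromosome 19 at chr19:10832976-10833225 for Mt1 and chr19:10838709-10838958 for Mt2A. Capitals mark every match to the MRE letters TGCACNC or TGCGCNC on either strand.
Mt1: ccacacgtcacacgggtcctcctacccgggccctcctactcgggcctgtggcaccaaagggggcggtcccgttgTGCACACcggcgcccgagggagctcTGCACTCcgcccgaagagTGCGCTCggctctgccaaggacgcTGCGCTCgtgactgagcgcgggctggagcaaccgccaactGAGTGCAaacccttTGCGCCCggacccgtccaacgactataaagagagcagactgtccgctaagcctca
Mt2A: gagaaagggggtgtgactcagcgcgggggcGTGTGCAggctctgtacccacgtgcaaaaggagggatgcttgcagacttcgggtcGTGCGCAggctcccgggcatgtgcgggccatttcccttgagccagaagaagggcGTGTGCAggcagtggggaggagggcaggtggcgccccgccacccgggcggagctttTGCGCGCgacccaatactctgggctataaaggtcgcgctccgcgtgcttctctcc
The Mt1 promoter held 6 MRE matches and the Mt2A promoter held 4. Of 33469 rat promoter windows of this length, 20.6% held at least 1 match, 0.266% held at least 4 and 0.0269% held at least 6. In both genes 1 match began at base -55 on the plus strand, counted back from the start, close to the tataaa letters visible near the end of each sequence. The antioxidant response element letters TGACNNNGC, searched on both strands, occurred once in each promoter, from -101 to -93 in Mt1 and from -237 to -229 in Mt2A, against 10.1% of all promoters with at least 1 such match. Neither promoter held the heat shock letters TTCNNGAA, the STAT letters TTCNNNGAA or the glucocorticoid receptor letters TGTTCT. These are present in 7.48%, 7.67% and 17.5% of all promoters. A match is a string of letters in this window and does not show binding. The neighbouring family members Mt3 and Mt4 held 3 matches and 1 match to the MRE letters.

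**Figure D1:**
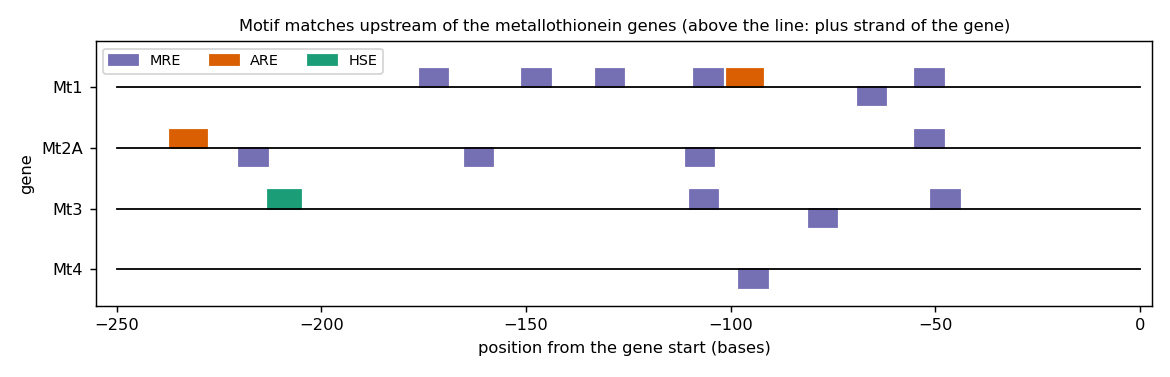
Positions of motif matches in the 250 bases upstream of the Mt1, Mt2A, Mt3 and Mt4 transcription starts; the horizontal axis is the distance in bases from the start, and marks above or below each line are matches on the plus or minus strand. The MRE matches number 6 in Mt1, 4 in Mt2A, 3 in Mt3 and 1 in Mt4.

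Values are log2 probe set levels. Levels of different probe sets are not compared with each other. Probe sets above log2 4 in at least 5 arrays entered 1 limma fit of all 20 arrays, with p-values adjusted by the Benjamini-Hochberg method over the 12947 probe sets kept. Counts are over 7837 genes, and a gene was called at an adjusted p under 0.05. The array labelled D3T 5 was closest to an OLT array, OLT 2 (r = 0.989), and the array labelled OLT 1 was closest to a D3T array, D3T 2 (r = 0.979). Results of the metallothionein probe sets are therefore given with and without both. Those of other genes are for all 20 arrays unless stated. The summed level of the hepatocyte markers tested (9 of 10 listed) lay between 17.83 and 18.32 in all arrays. None of the 9 was called in D3T or OLT, where 5 in each had a limma unadjusted p under 0.05 (medians 0.15 and 0.21). Apoa1 was called higher in BNF and, without the arrays labelled D3T 5 and OLT 1, lower in D3T. The summed level of the erythrocyte markers tested (Hbb and Alas2, 2 of 6 listed) ran from 12.11 to 13.57 in control, 12.46 to 13.74 in BNF, 13.51 to 14.36 in D3T and 13.52 to 14.41 in OLT arrays. Scaling moved the balance of all calls. Of the genes called against control, 42.9% were higher in D3T, 25.7% in OLT and 42.5% in BNF. After each array was centred on its median these shares were 65.8%, 57.8% and 58.5%, and the median difference of all genes moved from -0.02 to 0.13 in D3T and from -0.05 to 0.12 in OLT. After quantile normalization the shares were 53.2%, 45.9% and 55.4%.

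Mt2A was lowest in D3T livers, intermediate in OLT livers, and at like levels in control and BNF livers. In control arrays 1 to 5 its log2 level was 12.37, 13.34, 13.01, 12.79 and 12.97. BNF arrays 1 to 5 read 12.79, 13.62, 13.06, 12.44 and 12.97. These ranges overlapped almost completely. In D3T arrays 1 to 5 Mt2A read 6.83, 6.99, 6.97, 8.02 and 11.68, with 4 arrays close together and the array labelled D3T 5 far above them. OLT arrays 1 to 5 read 8.70, 11.76, 12.29, 10.93 and 10.87, with the array labelled OLT 1 the lowest. No D3T or OLT array reached the lowest control array, although the highest OLT array at 12.29 lay just under it. Group means were 12.89 ± 0.35 (SD, n = 5) in control, 12.98 ± 0.43 (n = 5) in BNF, 10.91 ± 1.37 (n = 5) in OLT and 8.10 ± 2.06 (n = 5) in D3T. Leaving out the array labelled OLT 1 and the one labelled D3T 5, the last means were 11.46 ± 0.69 (n = 4) and 7.20 ± 0.55 (n = 4).

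Mt1 had its lowest levels in D3T livers too, and its OLT levels overlapped those of control. Its control arrays 1 to 5 read 8.85, 9.73, 10.52, 8.86 and 9.74. BNF arrays 1 to 5 read 9.24, 11.02, 9.27, 9.11 and 9.78, again inside or next to the control range. D3T arrays 1 to 5 read 5.02, 6.54, 6.00, 5.91 and 8.48, and the array labelled D3T 5 was again the highest, yet still below every control array. In OLT arrays 1 to 5 Mt1 read 8.51, 9.01, 10.16, 8.19 and 7.85. Here the array labelled OLT 1 lay among the other OLT arrays, unlike for Mt2A. Mean Mt1 was 9.54 ± 0.70 (SD, n = 5) in control, 9.68 ± 0.79 (n = 5) in BNF, 8.74 ± 0.90 (n = 5) in OLT and 6.39 ± 1.29 (n = 5) in D3T. Without the same 2 arrays the OLT mean was 8.80 ± 1.03 (n = 4) and the D3T mean 5.87 ± 0.63 (n = 4).

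A further probe set, 1371237_a_at, is annotated to Mt1f, Ttr and Mt1 together, so it names no single gene and is no member. Its pattern over the diets is given because it names Mt1 among others. It read 14.76, 15.35, 15.13, 14.96 and 15.06 in control arrays 1 to 5 and 15.09, 15.20, 15.12, 14.75 and 15.23 in BNF arrays. In D3T arrays 1 to 5 it read 10.59, 10.53, 10.15, 11.30 and 13.96, and in OLT arrays 11.43, 14.00, 14.02, 13.86 and 13.60. Every D3T and OLT array was below every control array, with the array labelled D3T 5 the highest and the one labelled OLT 1 the lowest of their groups. The separate Mt3 and Mt4 probe sets were too low to be kept, with group means between 3.51 and 3.62 for Mt3, a form known mainly from brain, and between 2.98 and 3.04 for Mt4, known from squamous epithelium.

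**Figure D2:**
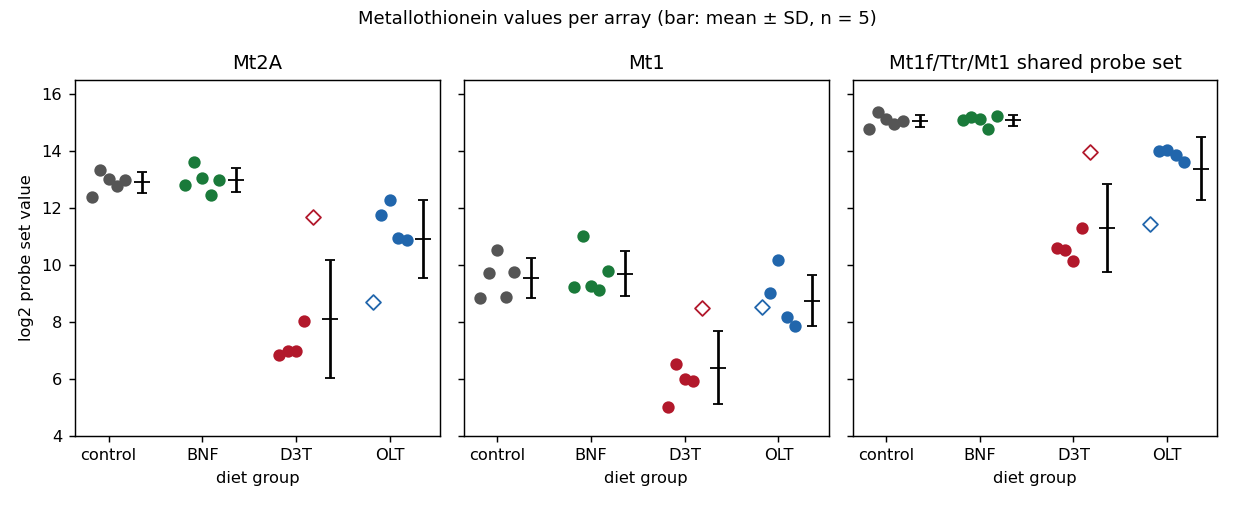
Log2 level of Mt2A, Mt1 and the probe set shared by Mt1f, Ttr and Mt1 (vertical axes) in each of the 20 arrays by diet group; bars are group means ± SD (n = 5) and open diamonds are the arrays labelled D3T 5 and OLT 1. Mt2A runs from 12.37 to 13.34 in control arrays and from 6.83 to 11.68 in D3T arrays.

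D3T against control is the contrast that picked the genes, so its sizes are given without a test. Mt2A was 4.79 lower on the log2 scale in D3T than in control (difference -4.79, SE 0.74, 95% interval -6.34 to -3.25), a level 27.7-fold lower. Once the arrays labelled D3T 5 and OLT 1 were left out, the difference was -5.69 (SE 0.31), or 51.6-fold. For Mt1 the difference was -3.15 (SE 0.55, 95% interval -4.31 to -1.99), or 8.89-fold lower, and -3.67 (SE 0.49), or 12.8-fold, without those arrays. The shared probe set differed by -3.75 (SE 0.56), and by -4.41 (SE 0.18) without them. For scale, 7.45% of all genes were called lower in D3T than in control and 5.60% higher. The erythrocyte markers Hbb and Alas2 were both called higher in D3T and in OLT (Hbb in OLT at a limma adjusted p of 0.0206, and 0.0518 without the arrays labelled D3T 5 and OLT 1). What erythrocyte RNA adds to the metallothionein values was not tested. In bulk liver, fewer cells of a type and less RNA per cell cannot be told apart.

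OLT against control tests whether the second dithiolethione goes with the same genes. It shares its control arrays with the contrast that picked them. The Mt2A mean was 3.96-fold lower in OLT (difference -1.99, SE 0.74, 95% interval -3.53 to -0.44), which missed the threshold in the limma fit (adjusted p = 0.117). All 5 OLT arrays were below all 5 control arrays, and the exact two-sided permutation test gave p = 0.00794, the smallest that 5 against 5 arrays allow. Across the genome 5.58% of genes were called lower in OLT. In the fit that omitted the arrays labelled D3T 5 and OLT 1, Mt2A passed (difference -1.43, SE 0.31, 2.70-fold lower, limma adjusted p = 0.0135), where 3.88% of genes were called lower. With OLT 1 alone left out the difference was the same, with an SE of 0.70 and an adjusted p of 0.289. The pass therefore rests on leaving out D3T 5 too, a D3T array that is no part of this comparison, adds to the common spread and belongs to the contrast that picked the genes. Mt1 differed by -0.80 (SE 0.55, 95% interval -1.96 to 0.37, limma adjusted p = 0.402) and by -0.74 (SE 0.49, adjusted p = 0.463) without the same arrays, so a difference was not shown for Mt1, and the interval holds both no change and a fall larger than 2-fold. The shared probe set differed by -1.67 (SE 0.56, limma adjusted p = 0.0803), and by -1.18 (SE 0.18, adjusted p = 0.000978) without them, but with an adjusted p of 0.208 without OLT 1 alone. Whether Mt2A and Mt1 differ from each other in their response to OLT was not tested.

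No difference from control was shown for either gene in BNF livers. This comparison shares its control arrays with the one that picked the genes. The Mt2A difference was 0.08 (SE 0.74, 95% interval -1.46 to 1.63, limma adjusted p = 0.991), and the Mt1 difference 0.14 (SE 0.55, 95% interval -1.02 to 1.30, adjusted p = 0.977). With all arrays these intervals leave room for a change of over 2-fold in either gene. With the arrays labelled D3T 5 and OLT 1 left out, the Mt2A interval was -0.54 to 0.71, which is less than 2-fold either way, and the Mt1 interval was -0.83 to 1.12, which still holds a rise of over 2-fold. Neither of those arrays is in this comparison, so only the common spread changed. In the genome 1.77% of genes were called higher and 2.40% lower in BNF than in control.

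BNF against OLT compares 2 groups of which neither was control or D3T. The limma errors still take their spread from all 20 arrays, those that picked the genes included, while the exact permutation test uses the BNF and OLT arrays alone. Fitted on the 10 arrays of these groups only, the Mt2A difference had an SE of 0.56 and a limma adjusted p of 0.0533. Mt2A was 4.19-fold higher in BNF (difference 2.07, SE 0.74, 95% interval 0.52 to 3.62, limma adjusted p = 0.0866), and all 5 BNF arrays lay above all 5 OLT arrays (exact permutation p = 0.00794, two-sided), with 6.41% of all genes called higher in BNF than in OLT. Once the arrays labelled D3T 5 and OLT 1 were left out, the difference was 1.52 (SE 0.31, 2.86-fold, limma adjusted p = 0.00652), where 5.04% of genes were called higher. Leaving out OLT 1 alone gave the same difference with an SE of 0.70 and an adjusted p of 0.23, so this pass needed D3T 5 to be left out as well, an array outside the comparison that adds to the common spread and belongs to the contrast that picked the genes. In BNF against OLT the macrophage markers were called higher in 10 of 10 tested (median difference 1.47), as were 4 of 8 stellate cell and fibroblast markers and the cholangiocyte marker Aqp1. The summed macrophage level ran from 12.37 to 13.52 in BNF and from 10.75 to 12.33 in OLT arrays, and the summed stellate level from 11.77 to 12.51 and from 10.58 to 11.48. What these cells add to the Mt2A difference was not tested. Mt1 differed by 0.94 (SE 0.55, 95% interval -0.22 to 2.10, limma adjusted p = 0.301) and by 0.88 (SE 0.49, adjusted p = 0.328) without them. For Mt1 the exact permutation p was 0.167 for OLT against control, 0.77 for BNF against control and 0.119 for BNF against OLT. For Mt2A in BNF against control it was 0.714. The exact p-values are unadjusted, from 9 tests over both genes and the shared probe set.

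**Figure D3:**
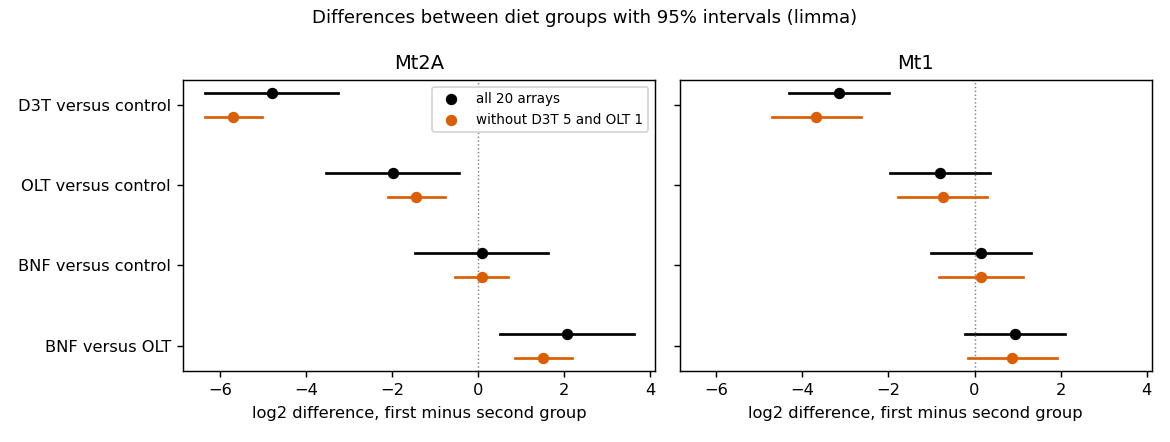
Log2 differences between diet groups with 95% intervals for Mt2A and Mt1; black points are fits of all 20 arrays and orange points fits without the arrays labelled D3T 5 and OLT 1. The Mt2A interval for OLT minus control runs from -3.53 to -0.44 with all arrays.

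D3T and OLT were fed at different doses, so their values stand side by side without a comparison. Mt2A read from 6.83 to 11.68 in D3T and from 8.70 to 12.29 in OLT, ranges that overlapped. Among the other arrays, leaving aside those labelled D3T 5 and OLT 1, the highest D3T array read 8.02 and the lowest OLT array 10.87. The Mt1 ranges, 5.02 to 8.48 and 7.85 to 10.16, overlapped only through the array labelled D3T 5. In the order of group means D3T was lowest and OLT second for both genes, and control and BNF did not differ beyond their spread.

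The metallothionein genes lie next to each other on chromosome 19 in the RefSeq order Nup93, Mt1, Mt2A, Mt3, Mt4. Of the genes around them that were kept, Nup93, a nuclear pore protein, differed from control by 0.10 in D3T (limma adjusted p = 0.736) and 0.21 in OLT (adjusted p = 0.431). Nudt21, a factor of mRNA 3' end processing on the other side, differed by -0.21 (adjusted p = 0.597) and -0.51 (adjusted p = 0.193). Neither neighbour passed the test where Mt2A was at its lowest. Herpud1, an endoplasmic reticulum stress gene further out beyond Nup93, fell by 2.00 in OLT (adjusted p = 0.00507) and differed by -0.82 in D3T (adjusted p = 0.2).

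Among rats on the control and BNF diets, metallothionein levels varied together. Over the 10 control and BNF arrays, with each group's mean taken off, Mt2A and Mt1 correlated at r = 0.79 (permutation p = 0.00816, 0.0122 after adjustment over 3 relations) and rho = 0.85 (permutation p = 0.00282, adjusted 0.00846). Leaving out the 2 arrays farthest from the median of Mt2A, BNF 2 and control 1, left r = 0.58 over 8 arrays. Mt2A and the shared probe set gave r = 0.87 (permutation p = 0.00226, adjusted 0.00678) and rho = 0.81 (permutation p = 0.00716, adjusted 0.0107), with r = 0.92 without those arrays. Mt1 and the shared probe set gave r = 0.60 (permutation p = 0.0479, adjusted 0.0479) and rho = 0.70 (permutation p = 0.0306, adjusted 0.0306), with r = 0.77 without BNF 2 and control 3. The transcripts are similar in sequence, and how far the probe sets read each other's RNA was not tested.

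Zinc handling genes moved little as a group, with 1 zinc importer apart. Of the 19 tested of 27 listed, 3 rose and none fell in D3T, 1 rose in OLT and none passed in BNF, where the limma fit gave 1 gene at an unadjusted p under 0.05. With the kept probe sets of each gene averaged, 1 zinc gene was called lower in D3T and 1 in OLT. List medians were 0.03, -0.05 and 0.05, beside -0.02, -0.05 and -0.06 for all genes. The rising genes were 15.8% of those tested in D3T and 5.26% in OLT, beside 5.60% and 1.93% of all genes. Slc39a4 (ZIP4), a plasma membrane zinc importer best known for zinc uptake in the intestine, read 6.75, 6.51, 6.37, 6.62 and 6.45 in control arrays 1 to 5 and 9.04, 8.87, 9.12, 9.51 and 7.44 in D3T arrays. In OLT arrays it read 8.53, 7.53, 7.37, 7.88 and 8.03, and in BNF arrays 7.31, 7.46, 7.59, 7.42 and 7.91. Every array of the 3 treated groups was above every control array, with the array labelled D3T 5 the lowest of its group and the one labelled OLT 1 the highest of its own. Slc39a4 rose by 2.26 in D3T (SE 0.29, limma adjusted p = 5.92e-05) and by 1.33 in OLT (SE 0.29, adjusted p = 0.00883). Its BNF difference of 0.999 (SE 0.29) had an adjusted p of 0.0616, and of 0.00119 without the arrays labelled D3T 5 and OLT 1. Slc39a4 was thus above the control range in 5 of 5 BNF rats, while the Mt2A ranges of BNF and control overlapped.

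The other called zinc genes moved less. Slc39a11 (ZIP11) rose by 0.50 in D3T (SE 0.14, limma adjusted p = 0.0297), and the call was lost in 5 of 10 fits that left out 1 array, control 2, control 4, control 5, D3T 3 or D3T 4 (adjusted p up to 0.0912). Slc39a3 (ZIP3) rose by 0.49 (SE 0.14, adjusted p = 0.0289), a call lost in 6 of 10 such fits, without control 2, control 4, control 5, D3T 2, D3T 3 or D3T 5 (adjusted p up to 0.0912), and without both arrays that stand apart (adjusted p = 0.0608). Mtf1, the metal sensor itself, differed from control by -0.62 in D3T (SE 0.25, adjusted p = 0.111), -0.71 in OLT (adjusted p = 0.0892) and -0.41 in BNF (adjusted p = 0.463). Slc30a1 (ZnT1), the zinc exporter that Mtf1 is known to induce alongside metallothioneins, differed by -0.68 in D3T (SE 0.53, adjusted p = 0.449), -0.73 in OLT (adjusted p = 0.42) and 0.06 in BNF (adjusted p = 0.991). Its arrays were widely spread, from 4.42 to 7.33 in both D3T and OLT. Slc39a14 (ZIP14), the importer tied to inflammation, differed by -0.19, -0.19 and -0.21 in D3T, OLT and BNF (adjusted p = 0.388, 0.401 and 0.497).

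Copper handling genes gave 1 call in D3T among 12 tested of 18 listed, or 8.33%, near the 5.60% of all genes called higher there. Atox1, the copper chaperone that loads the copper ATPases, rose by 0.41 in D3T (SE 0.13, limma adjusted p = 0.0477). That call was lost in 8 of 10 fits that left out 1 array, all but those without control 1 or D3T 5 (adjusted p up to 0.144), and it was kept without both arrays that stand apart (adjusted p = 0.0181). None passed in OLT or BNF by the limma fit, with 1 and 2 genes at an unadjusted p under 0.05. Atp7b, the hepatic copper exporter, differed by 0.01, 0.02 and 0.00 (adjusted p = 0.967, 0.894 and 0.999).

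**Figure D4:**
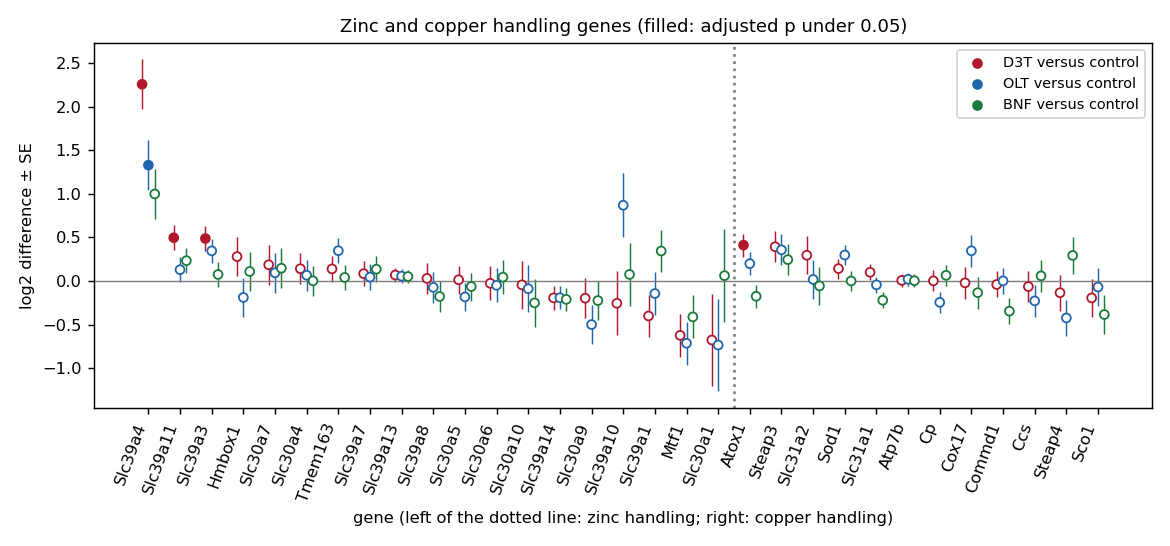
Log2 differences from control (± SE) of the tested zinc handling genes, left of the dotted line, and copper handling genes, right of it, in D3T, OLT and BNF livers; filled points have an adjusted p under 0.05. Slc39a4 stands above the rest at 2.26 in D3T and 1.33 in OLT.

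Other pathways known to act on metallothionein genes were read from lists chosen with earlier results of these data known. Whether any of these pathways acts on Mt2A or Mt1 in these livers was not tested. Of 22 glucocorticoid response genes tested, 2 rose and 6 fell in D3T, 4 fell in OLT and 1 fell in BNF, with medians of -0.26, -0.19 and -0.32. The falling genes made up 27.3%, 18.2% and 4.55% of those tested, beside 7.45%, 5.58% and 2.40% of all genes. Tsc22d3 (GILZ), a classical glucocorticoid target, fell by 1.83 in OLT (limma adjusted p = 8.61e-06), and Fkbp5, a receptor co-chaperone, by 1.39 (adjusted p = 0.00605). Both fell in D3T too, with differences of -1.84 for Tsc22d3 (adjusted p = 3.52e-06) and -1.13 for Fkbp5 (adjusted p = 0.0138). Dusp1, a MAP kinase phosphatase, fell by 2.94 in D3T (adjusted p = 0.00117) and by 1.79 in OLT (adjusted p = 0.0461, and 0.0601 without the arrays labelled D3T 5 and OLT 1). Leaving out any single array other than control 3 or OLT 5 also ended that OLT call, with adjusted p up to 0.109. The 2 genes that rose in D3T were 9.09% of those tested, near the 5.60% of all genes called higher there. They were Angptl4, a lipoprotein lipase inhibitor, which rose by 2.09 (limma adjusted p = 0.00114), and Hsd11b1, which regenerates active glucocorticoid, by 1.84 (adjusted p = 0.00365). In BNF, Sds, an enzyme of serine breakdown, fell by 3.12 (limma adjusted p = 0.0178, and 0.0514 without control 2).

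Of 17 heat shock genes tested, 11 fell in D3T, 6 fell in OLT and 1 fell in BNF, with medians of -0.72, -0.26 and -0.26. These are 64.7%, 35.3% and 5.88% of the genes tested, beside 7.45%, 5.58% and 2.40% of all genes. The inducible chaperone Hspa1a (Hsp70) fell by 5.46 in D3T (SE 0.56, limma adjusted p = 1.01e-05) and differed by -4.99 in OLT, where it fell too (adjusted p = 5.36e-05). Beside these the Mt2A differences were -4.79 and -1.99. The small heat shock protein gene Hspb1 fell by 2.32 in D3T (adjusted p = 0.000469) and by 1.40 in BNF (adjusted p = 0.0416), the latter a call lost when any single array but control 1 was left out (adjusted p up to 0.121). Hspb1 fell in OLT too (adjusted p = 0.0113). Its OLT difference ran from -1.99 to -1.44 over fits that left out 1 array, and none lost the call. The co-chaperone Dnajb4 fell by 1.78 in D3T and by 1.87 in OLT (adjusted p = 0.000224 and 0.000315). Bag3, a partner of Hsp70, fell by 1.65 in OLT (adjusted p = 0.000316) and differed by -1.32 in D3T, where it fell too (adjusted p = 0.00104).

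Of 18 acute phase and STAT3 genes tested, 1 rose and 1 fell in D3T, 1 fell in OLT, and 3 rose and 1 fell in BNF (medians -0.09, -0.06 and 0.19, beside -0.02, -0.05 and -0.06 for all genes). The share of 5.56% that a single gene makes was near the 5.60% of all genes higher and below the 7.45% lower in D3T, and near the 5.58% lower in OLT. The 3 rising genes in BNF were 16.7%, beside 1.77% of all genes. Nfkbia, the NF-kappa-B inhibitor, fell by 1.11 in D3T (limma adjusted p = 0.000382) and by 0.86 in OLT (adjusted p = 0.00532). Crp, C-reactive protein, rose by 0.38 in D3T (adjusted p = 0.0372), a call lost in 7 of 10 fits that left out 1 array, all but those without control 3, D3T 4 or D3T 5 (adjusted p up to 0.0991). In BNF the iron-scavenging acute phase gene Lcn2 rose by 5.77 (adjusted p = 4.38e-09), the interleukin receptor gene Il1r1 by 2.01 (adjusted p = 0.0112) and Orm1 by 0.86 (adjusted p = 0.0125). Lcn2 averaged 8.19 in BNF, but 2.42 in control, 2.80 in D3T and 2.64 in OLT, under the log2 4 cut. The size of its rise is thus taken from control values near the floor. Macrophage markers Laptm5 and Tyrobp were also called higher in BNF, 2 of 10 tested, and 4 of 8 stellate cell and fibroblast markers were. The summed macrophage level ran from 12.37 to 13.52 in BNF and from 11.70 to 12.57 in control arrays, and the summed stellate level from 11.77 to 12.51 and from 10.86 to 11.40. Their part in the BNF values was not tested. Mt2A and Mt1 in BNF stayed within or near the control range throughout.

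Most Nrf2 targets rose in D3T livers, where Mt2A was at its lowest. Of 25 tested, 17 rose and 1 fell in D3T, 7 rose and 1 fell in OLT and 2 rose in BNF, with medians of 1.15, 0.51 and 0.34. The rising genes made up 68%, 28% and 8% of those tested, beside 5.60%, 1.93% and 1.77% of all genes. Without the arrays labelled D3T 5 and OLT 1 the medians were 1.30, 0.31 and 0.34, so OLT no longer stood above BNF. Akr1b8, an aldo-keto reductase, rose by 8.06 in D3T (SE 1.54, limma adjusted p = 0.00229), Gstp1, a glutathione transferase, by 6.76 (adjusted p = 0.000271), and Akr7a3, the aflatoxin aldehyde reductase, by 4.36 (adjusted p = 0.000161). In OLT Akr7a3 rose by 2.57 (limma adjusted p = 0.0166), and by 1.91 (adjusted p = 0.00123) without the arrays labelled D3T 5 and OLT 1. The epoxide hydrolase gene Ephx1 rose by 1.70 in OLT (adjusted p = 0.000318), while Hmox1, heme oxygenase, fell by 1.74 (adjusted p = 0.0108). In BNF the quinone reductase gene Nqo1 rose by 3.22 (limma adjusted p = 4.36e-05), and Nfe2l2, which encodes Nrf2 itself, rose by 0.91 (adjusted p = 0.0266). Leaving out 1 array ended this BNF call of Nfe2l2 in 5 of 10 fits, those that lacked BNF 1, BNF 2, BNF 4, control 4 or control 5 (adjusted p up to 0.0896). Nfe2l2 was also the 1 gene that fell in D3T (limma adjusted p = 0.00306). There its difference ran from -1.19 to -0.96 over fits that left out 1 array, and none lost the call. Nqo1 and Ephx1 were also called higher in D3T (adjusted p = 0.00039 and 1.26e-05). With the arrays labelled D3T 5 and OLT 1 left out, 8 of the 25 were called higher in BNF, or 32%, beside 2.16% of all genes. Neither array is in that comparison, so the differences stayed the same and only the common spread changed.

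Circadian genes, of which Per1 is also on the glucocorticoid list, were included because the hour of death is not given in the sources used here. Of 17 tested, 2 rose and 6 fell in D3T, 1 rose and 4 fell in OLT, and 2 rose and 1 fell in BNF (medians -0.88, -0.51 and 0.03). The falling genes were 35.3% and 23.5% of those tested in D3T and OLT, beside 7.45% and 5.58% of all genes. In BNF the falling gene was 5.88%, beside 2.40% of all genes. The rising genes were 11.8%, 5.88% and 11.8% in D3T, OLT and BNF, beside 5.60%, 1.93% and 1.77% of all genes. Once the arrays labelled D3T 5 and OLT 1 were left out, 3 fell and none rose in OLT by the limma fit, with 8 of the 17 genes at an unadjusted p under 0.05. Noct (nocturnin), a rhythmic RNA and nucleotide phosphatase gene, fell by 5.37 in D3T (limma adjusted p = 3.32e-05) and by 2.30 in OLT (adjusted p = 0.0368). Its OLT call was lost in 7 of 10 fits that left out 1 array, all but those without control 3, OLT 3 or OLT 5 (adjusted p up to 0.0919). The clock repressor Per2 fell by 4.39 in D3T (adjusted p = 2.81e-05) and by 2.21 in OLT (adjusted p = 0.0142), and its BNF difference was -0.07. Usp2, a rhythmic ubiquitin protease gene, fell by 3.29 in D3T (adjusted p = 0.00593). Nfil3, a repressor of clock output genes, fell by 1.16 in OLT (adjusted p = 0.0247), a call lost without control 1, control 4, control 5, OLT 1 or OLT 3 (adjusted p up to 0.0679). That call was also lost without both D3T 5 and OLT 1 (limma adjusted p = 0.0576). In BNF the clock genes Bhlhe41 and Nr1d1 rose by 2.53 and 1.51 (adjusted p = 0.0115 and 0.00383) and Nfil3 fell by 1.52 (adjusted p = 0.00679). Bhlhe41 averaged 5.12 in BNF and 2.59 in control, under the log2 4 cut, so its rise starts near the floor. Nr1d1 rose in the other diets too, by 1.35 in D3T (adjusted p = 0.00345) and by 0.94 in OLT (adjusted p = 0.0466). The OLT call of Nr1d1 was lost in 9 of 10 fits that left out 1 array (adjusted p up to 0.103), and without both D3T 5 and OLT 1 (limma adjusted p = 0.0936).

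The genes most like Mt2A over all 20 arrays were ranked by Pearson correlation of log2 levels, as a description, since all points share the diets and the arrays that chose Mt2A. Mt1 was the fourth of 7836 genes at r = 0.92. Those with the highest values besides Mt1 were Sult1c3 (a sulfotransferase, 0.93), Foxa3 (a liver transcription factor, 0.92), H1f2 (a linker histone, 0.92), Lect2 (a secreted liver protein, 0.92), Per2 (0.91), Nabp1 (0.91), Asl (the urea cycle enzyme argininosuccinate lyase, 0.91), Hsph1 (a heat shock protein, 0.90), Slc25a22 (a mitochondrial glutamate carrier, 0.90) and Spsb4 (0.89). Sult1c3 shared the order of the diets, with group means of 8.67 in control, 9.14 in BNF, 5.88 in OLT and 4.58 in D3T. It was also higher in the array labelled D3T 5, at 6.86 beside 3.50, 3.57, 4.36 and 4.63 in the other D3T arrays, and lowest of the OLT arrays in the one labelled OLT 1, at 3.55.

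The lowest correlations with Mt2A were those of Cryl1 (a dehydrogenase of the glucuronate pathway, -0.97), Me1 (NADPH-forming malic enzyme, -0.96), Gstm4 (a glutathione transferase, -0.96), Akr7a3 (-0.96) and Akr1b8 (-0.95). Cryl1 read 10.76, 10.44, 10.89, 10.54 and 6.73 in D3T arrays 1 to 5 and 10.69, 6.61, 6.74, 7.33 and 7.66 in OLT arrays, the mirror image of Mt2A in both arrays that stand apart. With the group means taken off, the highest correlations were with Cyp1a2 (a cytochrome P450, 0.90), Atg16l2 (0.88), Sult1c3 (0.84), Cenpb (0.82) and Tor1a (0.81). Over all 20 arrays with the means left in, Atg16l2 and Cenpb correlated with Mt2A at 0.15 and 0.13. The 2 arrays that stand apart were extreme for Atg16l2, D3T 5 at 5.28 and OLT 1 at 2.91, and with the means left in its correlation without both was -0.45. The same value was 0.16 for Cenpb, 0.68 for Cyp1a2, 0.93 for Sult1c3 and 0.86 for Tor1a. These values keep the diet differences. How far the correlations with the means taken off rest on the 2 arrays was not tested for any of these genes.

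**Figure D5:**
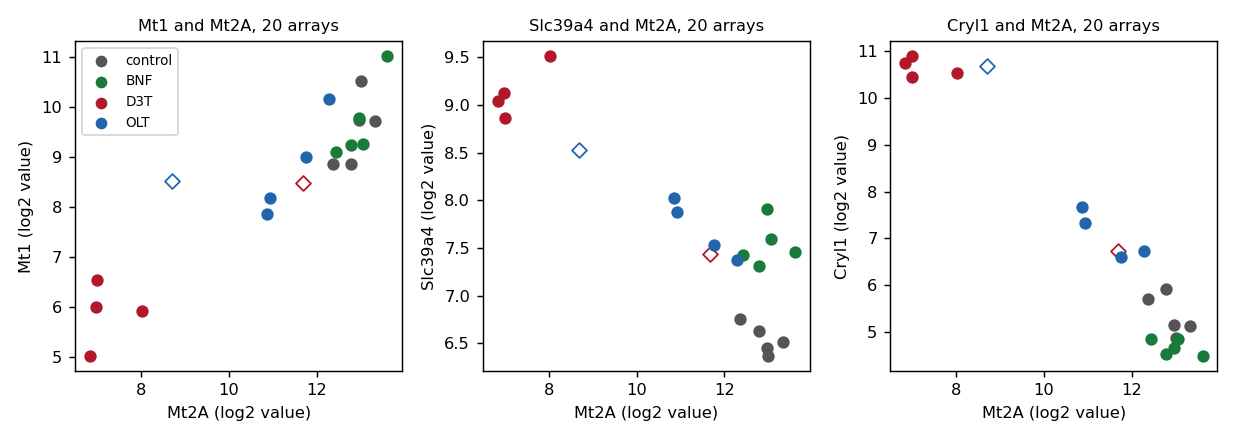
Log2 levels of Mt1, Slc39a4 and Cryl1 (vertical axes) against Mt2A (horizontal axis) in the 20 arrays, by diet group; open diamonds are the arrays labelled D3T 5 and OLT 1. Mt1 follows Mt2A (r = 0.92) and Cryl1 runs against it (r = -0.97).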

How the data were processed

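Liver RNA of 20 rats was hybridised to 1-colour Affymetrix arrays, 1 array a rat. The deposited values are log2 probe set levels made with GCRMA, per the submitters' processing notes, with no version given. GCRMA subtracts background from probe sequence and normalizes over arrays, so values near the floor have no order. They ran from 0.083 to 16.46. Of 31042 probe sets, 20826 had 1 gene symbol in the platform annotation (20758 updated through the RefSeq GRCr8 table), 436 several and 9780 none. Probe sets above log2 4 in at least 5 arrays were kept (12947). The kept probe set of highest mean stood for a gene (7837 genes). Differences came from limma 3.58.1 in R 4.3.3, with a mean per diet, a variance trend and Benjamini-Hochberg adjustment over the kept probe sets, tested on simulated data. Permutation tests and motif searches used Python 3.11.15 and SciPy 1.17.1. The lowest correlation between 2 arrays was 0.930. The number of arrays limits the precision. Array and hybridisation dates were not used here, so batches were not examined. The metallothioneins and all gene lists were chosen with earlier results of these data known. Named genes were both metallothioneins, up to 6 called zinc and copper genes a comparison (with Mtf1, Slc30a1, Slc39a14 and Atp7b always), up to 3 called genes of each other list, and the genes most and least correlated with Mt2A. Same-numbered arrays of different diets did not deviate together (r from -0.27 to 0.30), so numbers were not treated as pairs. Alternatives covered scaling, filters, variance prior, array weights, the replicate block and left-out arrays.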

Additional observations from a re-analysis of the deposited data

Results flagged for a closer look

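In groups of 5 arrays, the gap of the highest or lowest array to its neighbour was set against the range of the group (Dixon's 95% limit). Of 32 groups looked at, for the metallothioneins, the shared probe set, Slc39a4, Mtf1, Slc30a1, Cryl1 and Sult1c3, 6 had such an array. Atg16l2, described above with single arrays, was not looked at in this way. Chance gives about 1 in 20 independent groups, but these groups are not independent, since the genes share the arrays, the D3T and control values of Mt2A were used to choose it, and Cryl1 and Sult1c3 were taken for their correlation with Mt2A over the same arrays. The count is a description. The Mt2A level of the array labelled D3T 5, 11.68, stood far above the other D3T arrays. In the shared probe set the array labelled OLT 1, at 11.43, stood far below the other OLT arrays. Cryl1 read 6.73 in the array labelled D3T 5, far below its group, and 10.69 in the array labelled OLT 1, far above its group. Mtf1, the metal sensor, had a low array in BNF, BNF 5 at 6.23, and another in D3T, D3T 1 at 6.39. The array labelled D3T 5 correlated better on average with OLT arrays (r = 0.979) than with its own group (r = 0.968), and the array labelled OLT 1 slightly better with D3T arrays (r = 0.966) than with its own (r = 0.963). Why these arrays stand apart was not tested.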

How the results depend on the processing

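The D3T differences kept their sign under every alternative run, with ranges over left-out arrays of -5.69 to -4.48 for Mt2A and -3.67 to -2.81 for Mt1. The genes were picked by this contrast, and every D3T array lay below every control array. Leaving out an array could therefore not reverse the sign, and the kept sign is no support. For OLT against control, Mt2A passed with array weights (-1.74, adjusted p = 0.043), without the arrays labelled D3T 5 and OLT 1 (-1.43, adjusted p = 0.0135) and by the exact permutation test (-1.99, p = 0.00794). Leaving out 1 array gave -2.33 to -1.43 (adjusted p 0.0925 to 0.289), and over all other alternatives p ran from 0.00794 to 0.263. BNF against OLT passed without those 2 arrays (1.52, adjusted p = 0.00652) and by the exact permutation test (2.07, p = 0.00794), and leaving out 1 array gave 1.52 to 2.41 (adjusted p 0.0574 to 0.23). The differences of BNF from control, none of them called, changed sign with array weights (Mt2A -0.21, Mt1 -0.084, shared probe set -0.13), for the shared probe set with quantile normalization (-0.024), and with 1 array left out, over ranges of -0.078 to 0.22 for Mt2A, -0.19 to 0.39 for Mt1 and -0.049 to 0.11 for the shared probe set. With the replicate number as a block in the fit, Mt2A in OLT against control was -1.99 (adjusted p = 0.0946) and in BNF against OLT 2.07 (adjusted p = 0.0746), and no call of either gene changed. The block moved copper genes called in D3T from 1 to 0 and glucocorticoid genes called in BNF from 1 to 2. Centring gave 2 zinc and 2 acute phase genes in OLT in place of 1 and 1, and in BNF 1 zinc gene in place of 0, 2 glucocorticoid genes in place of 1, 4 Nrf2 targets in place of 2 and 0 heat shock genes in place of 1. Quantile normalization gave in BNF 1 zinc gene, 2 glucocorticoid genes, 6 Nrf2 targets and 0 heat shock genes. Fits that lacked both D3T 5 and OLT 1 gave 3 circadian genes in OLT in place of 5, and in BNF 1 zinc gene, 2 glucocorticoid genes and 8 Nrf2 targets. Averaging the kept probe sets of each gene gave 2 zinc genes in OLT, 1 higher and 1 lower, and in BNF 1 zinc gene, 3 glucocorticoid genes and 2 heat shock genes. In D3T it gave 3 zinc genes higher and 1 lower. The cause of these changes was not tested. Centring moved the share of higher calls in BNF against OLT from 54.8% to 40.6%. Summed over both directions, the other 85 list counts under alternatives stayed within 1.5 times. Taken by direction, 31 of 210 counts moved further, among them the Nrf2 targets higher in OLT (7 to 11 with centring) and the acute phase genes in D3T (1 to 2 higher with averaged probe sets, 1 to 2 lower without D3T 5 and OLT 1). Of the tested differences of Mt2A and Mt1, 114 values under alternatives kept direction and side of the threshold. The 32 untested D3T differences kept direction, which says little, since that contrast picked the genes. Signal near background leaves Mt3 and Mt4 without a usable level.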
